A study of Mus musculus with 12 samples.

Results

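The colitic colon was compared between mice with and without inducible deletion of STING in myeloid cells. STING is encoded by Tmem173. The comparison used the 6 libraries from mice given dextran sulfate sodium (DSS) that were labelled for this contrast, of 12 libraries in all: 3 from colitic Tmem173fl/fl mice (replicates 1, 2 and 3) and 3 from colitic Tmem173iΔmye mice (replicates 1, 2 and 5). Tmem173fl/fl mice carry floxed Tmem173 alleles and no Cre. Tmem173iΔmye mice carry the same floxed alleles together with Lyz2-CreERT2, a Cre recombinase that is expressed from the lysozyme 2 locus of myeloid cells and is active after tamoxifen. All mice were 6 to 8 weeks old, on the C57BL/6N background, and both genotypes received 5 injections of tamoxifen, so that the controls shared the drug but not the recombinase. Colitic mice drank DSS, a polymer that damages the lining of the colon, over 7 days, and the remaining 6 libraries came from untreated mice of the same genotypes, 3 of each. RNA was taken from total colon, in which myeloid cells are a minority. The sex of each mouse was not given in the sources used here.

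STING sits in the membrane of the endoplasmic reticulum and is switched on by cyclic GMP-AMP, the product of the DNA sensor cGAS. It recruits the kinase TBK1, which activates IRF3 and with it type I interferon and interferon-stimulated genes, and it also activates NF-κB, which drives cytokines and chemokines. In the colon, macrophages, monocytes, neutrophils and part of the dendritic cells express Lyz2. DSS colitis strips the surface epithelium and brings neutrophils and monocytes into the wall, and fibroblasts and vessels then remodel the tissue.

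Library totals ran from 13823237 to 18718915 counts. The colitic Tmem173iΔmye libraries varied more among themselves than those of any other group, with a common biological coefficient of variation of 0.426 against 0.245 to 0.252. Replicate 5 of that group stood apart from the other colitic libraries. It had 1451 CPM (counts scaled to library size by TMM over all 12 libraries) of Xist, a transcript of the inactive X chromosome, against at most 0.545 CPM in the other 5 colitic libraries, and 183 CPM of Hoxd13, a homeobox gene of the distal gut, against 1.77 to 7.98 CPM. Among untreated libraries Xist was also high in replicate 3 of Tmem173fl/fl (1839 CPM) and replicate 3 of Tmem173iΔmye (1225 CPM). Mitochondrial transcripts made up 2.17%, 2.03% and 2.73% of the counts in colitic Tmem173fl/fl mice and 3.24%, 4.21% and 6.62% in colitic Tmem173iΔmye mice. The part of these differences in the results was not tested, and the counts of most lists are also given without replicate 5.

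The targeted gene was examined first. Tmem173 was at 42.4, 44.0 and 37.7 CPM in colitic Tmem173fl/fl mice and at 47.8, 23.8 and 31.1 CPM in colitic Tmem173iΔmye mice, and the groups overlapped. The log2 fold change (Tmem173iΔmye minus Tmem173fl/fl here and below) came to -0.28, with a standard error (SE) of 0.26 (BH-adjusted edgeR p 0.602). An exact two-sided permutation test over the 6 libraries gave p = 0.4, where 0.1 is the smallest value that 3 against 3 allows. Lyz2, the locus of the Cre, was at 477, 505 and 336 CPM against 319, 231 and 357 CPM, and the log2 fold change was -0.54 (BH-adjusted edgeR p 0.266). Counts over the whole gene in total colon did not show a loss of Tmem173, and they do not measure the gene in myeloid cells apart from the other cells of the tissue.

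Of 24102 genes tested, 480 fell (1.99%) and 198 rose (0.822%) in colitic Tmem173iΔmye mice, together 678 or 2.81%, at an adjusted p under 0.05 in edgeR's quasi-likelihood test with a change of at least 1 in either direction on the log2 scale. Protein-coding genes made up 466 of the genes that fell and 167 of those that rose. Scaled by library totals alone, which moved the median of all genes from 0.02 to -0.09 on the log2 scale, the split was 679 lower and 161 higher. All 678 called genes kept their sign when any of the 6 libraries was left out. As the same libraries chose these genes, that is no independent support for their direction. The number of calls did not hold. It was 27, 204 and 123 without replicates 1, 2 and 3 of the Tmem173fl/fl group, and 1593 and 46 without replicates 1 and 2 of the Tmem173iΔmye group. Without replicate 5 of the latter it was 508, with 172 higher and 336 lower. Calls on 19 genes held in all 6 of these reduced comparisons, among them Serpine2, Lox, Adamts1, Angpt2, Pf4, Hbb-bs, Hba-a1, Inhbb, Gsdmc4 and Capn13. The same test between untreated genotypes called 0 genes (0%), with 720 at an unadjusted p under 0.05 and 8 called by DESeq2. The interaction of genotype and DSS called 614 genes (2.55%). Groups that did not overlap were common, with all 3 Tmem173iΔmye libraries below all 3 Tmem173fl/fl libraries for 14.8% of genes and above them for 12%. These shares, and the 1.99% that fell and 0.822% that rose, are the background for the counts of every list below.

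**Figure D1:**
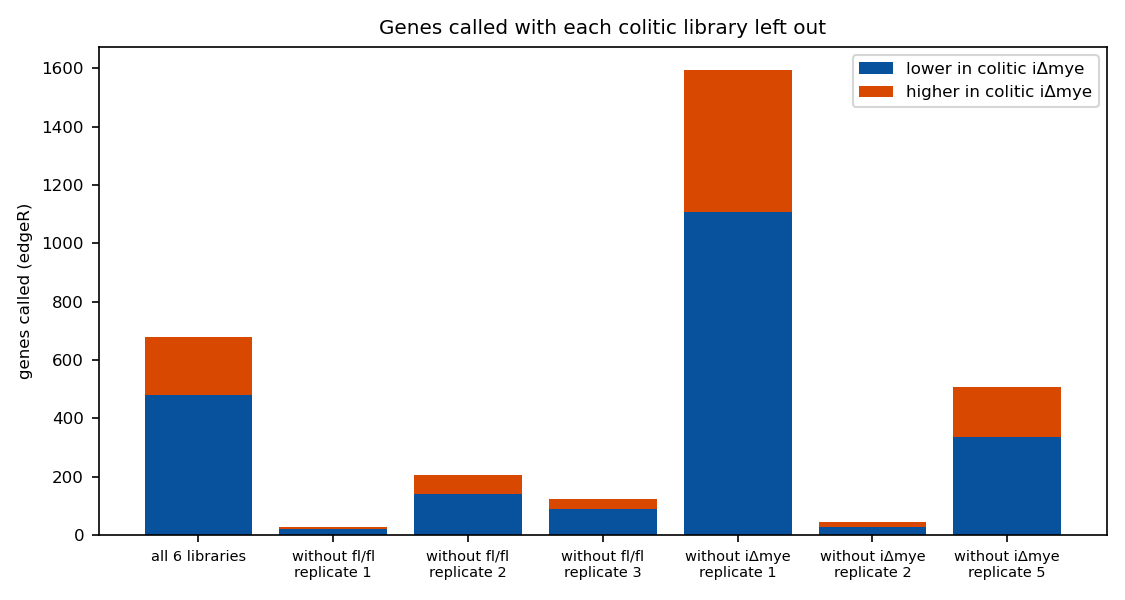
Number of genes called by edgeR (vertical axis) between the colitic genotypes with all 6 libraries and with each library left out in turn. Blue is lower and orange is higher in colitic Tmem173iΔmye mice. Bars run from 27 genes without replicate 1 of the fl/fl group to 1593 without replicate 1 of the iΔmye group, against 678 with all 6 libraries.

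Genes of a list around the chemokines that draw neutrophils fell in part. Of the 7 tested members of a list of CXC chemokines that act on CXCR1 and CXCR2 and of related platelet chemokines and receptors, 5 fell and 0 rose, with a median log2 fold change of -2.31, and in all 7 the 2 groups did not overlap. Cxcl1, the mouse counterpart of the human GRO chemokines, was at 97.3, 63.2 and 38.9 CPM in colitic Tmem173fl/fl mice and at 12, 12.4 and 15.8 CPM in colitic Tmem173iΔmye mice. Its log2 fold change came to -2.31 (SE 0.33, BH-adjusted edgeR p 0.0167). Cxcl2, a second ligand of CXCR2, was at 56.9, 52.0 and 55.2 CPM against 13.3, 17.7 and 7.34 CPM (log2 fold change -2.11, SE 0.30, BH-adjusted edgeR p 0.0167). Untreated colon had under 1 CPM of either gene on average, so that both colitic groups were above the untreated level.

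Cxcl1 and Cxcl2 lie close together on chromosome 5, and their promoters are shown because they share the same letters close to the start of the gene. Sequences are from RefSeq on GRCm38.p6, 250 bases before to 50 bases after the start site, read 5′ to 3′ on the strand of the gene. Capitals mark matches to GGGANNTTC, letters close to the NF-κB (kappaB) site, on either strand. In each promoter 2 matches, 1 per strand, overlap in 1 stretch. It begins 71 bases before the start site of Cxcl1 (chr5:90890995-90891294, plus strand) and 97 bases before that of Cxcl2 (chr5:90903649-90903948, plus strand).
Cxcl1: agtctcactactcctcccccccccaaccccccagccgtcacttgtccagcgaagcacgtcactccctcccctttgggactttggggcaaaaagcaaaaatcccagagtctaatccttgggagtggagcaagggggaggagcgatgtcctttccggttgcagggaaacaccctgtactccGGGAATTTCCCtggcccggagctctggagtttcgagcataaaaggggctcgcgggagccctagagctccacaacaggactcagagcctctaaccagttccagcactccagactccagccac
Cxcl2: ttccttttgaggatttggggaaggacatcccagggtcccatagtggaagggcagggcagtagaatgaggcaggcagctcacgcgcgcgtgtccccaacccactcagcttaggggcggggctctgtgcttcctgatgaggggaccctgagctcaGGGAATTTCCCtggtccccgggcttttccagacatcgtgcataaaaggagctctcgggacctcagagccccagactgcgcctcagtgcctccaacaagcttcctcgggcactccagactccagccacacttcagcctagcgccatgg
Such a match stood in the promoters of 4 of the 6 members of this list that were in the promoter table (66.7%), against 3.79% of 13848 tested genes with a promoter in that table. Among all genes that fell the share was 4.73% (16 of 338), close to that of all tested genes, and among genes that rose it was 4.44% (6 of 135). A match describes the letters and is neither a measured binding site nor a cause.

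Pf4 and Ppbp, chemokines of platelets and megakaryocytes, fell as well. Pf4 was at 40.5, 57.5 and 33.6 CPM against 6.13, 6.91 and 5.58 CPM, and the log2 fold change was -2.83 (SE 0.26, BH-adjusted edgeR p 0.00766). Ppbp was at 5.25, 2.27 and 2.66 CPM against 0.214, 0.684 and 0.364 CPM (log2 fold change -2.99, BH-adjusted edgeR p 0.0303). Cxcr2, the receptor by which neutrophils follow these ligands, fell by 2.23 on the log2 scale (BH-adjusted edgeR p 0.0346), from 18.8, 11.3 and 13.8 CPM to 4.63, 3.36 and 1.40 CPM. Cxcl5, which epithelial cells can make, was at 118, 102 and 48.7 CPM against 39.7, 27.8 and 47.1 CPM and did not pass the test (log2 fold change -1.24, BH-adjusted edgeR p 0.0886). Members of this list called lower, the receptor included, numbered 1, 3 and 2 when Tmem173fl/fl replicates 1, 2 and 3 were left out in turn, and 5, 2 and 5 when Tmem173iΔmye replicates 1, 2 and 5 were.

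Neutrophil genes also fell in part. Of 24 tested markers, 13 fell and 0 rose, with a median of -2.74 (-2.60 with a gene at the count floor set to its bound). Their summed level was 1820, 1662 and 1264 CPM in colitic Tmem173fl/fl mice and 511, 471 and 547 CPM in colitic Tmem173iΔmye mice. In untreated libraries the sum was 237 to 472 CPM. Lcn2 and Ly6g, both described below, made up a large part of the colitic sums, and Ly6g did not fall. In RNA from total tissue, fewer cells of a type and less RNA per cell cannot be told apart.

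S100a8 and S100a9 encode the subunits of calprotectin, which neutrophils hold in their cytosol. S100a9 was at 164, 98.7 and 159 CPM against 21.8, 28.0 and 4.55 CPM (log2 fold change -2.97, SE 0.56, BH-adjusted edgeR p 0.0327), and S100a8 had a log2 fold change of -2.75 (BH-adjusted edgeR p 0.0264). Lcn2, lipocalin 2, which withholds iron from bacteria and is made by neutrophils and by stressed epithelium, was at 858, 1019 and 424 CPM against 83.2, 86.8 and 14.3 CPM (log2 fold change -3.65, SE 0.66, BH-adjusted edgeR p 0.0293). In each of these genes replicate 5 was the lowest Tmem173iΔmye library, and replicates 1 and 2 were also below every Tmem173fl/fl library.

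Among the 13 neutrophil markers that fell, Ngp, a neutrophil granule protein, was at 76.1, 45.4 and 67.3 CPM against 0.926, 5.10 and 0.0607 CPM (log2 fold change -4.96, BH-adjusted edgeR p 0.0317), and Mmp8, neutrophil collagenase, was at 53.1, 27.6 and 43.7 CPM against 4.92, 5.91 and 0.486 CPM (log2 fold change -3.47, BH-adjusted edgeR p 0.0376). Camp, the cathelicidin peptide, was at or under the floor of 3 counts in every colitic Tmem173iΔmye library and at least 6.17-fold lower (BH-adjusted edgeR p 0.0496). Trem1, a receptor that amplifies myeloid activation, fell by 2.68 on the log2 scale (BH-adjusted edgeR p 0.0475). The stefin A genes of neutrophils fell from low levels. Stfa2l1 was at 3.25, 3.31 and 3.13 CPM against 0.0713, 0.249 and 0.243 CPM (BH-adjusted edgeR p 0.0112), and Stfa3 had 0 counts in every colitic Tmem173iΔmye library, which is at least 5.98-fold lower than in colitic Tmem173fl/fl mice when each library is set to the floor of 3 counts. These stefin genes are close paralogues, so reads may have been split between them. Ly6g did not follow, at 224, 95.2 and 143 CPM against 217, 101 and 239 CPM (log2 fold change 0.27, BH-adjusted edgeR p 0.741). Neutrophil genes called lower numbered 0, 1 and 1 when Tmem173fl/fl replicates 1, 2 and 3 were left out in turn, and 10, 2 and 13 when Tmem173iΔmye replicates 1, 2 and 5 were. With all 6 libraries they numbered 10 with DESeq2 size factors in edgeR or with upper quartile scaling, and 6 with robust estimation. With limma on log2(FPKM + 0.1) 2 were called lower, and 14 with no filter or a replicate block. The replicate block matched libraries by number, so Tmem173fl/fl replicate 3 and Tmem173iΔmye replicate 5, each without a partner, did not inform its genotype difference.

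**Figure D2:**
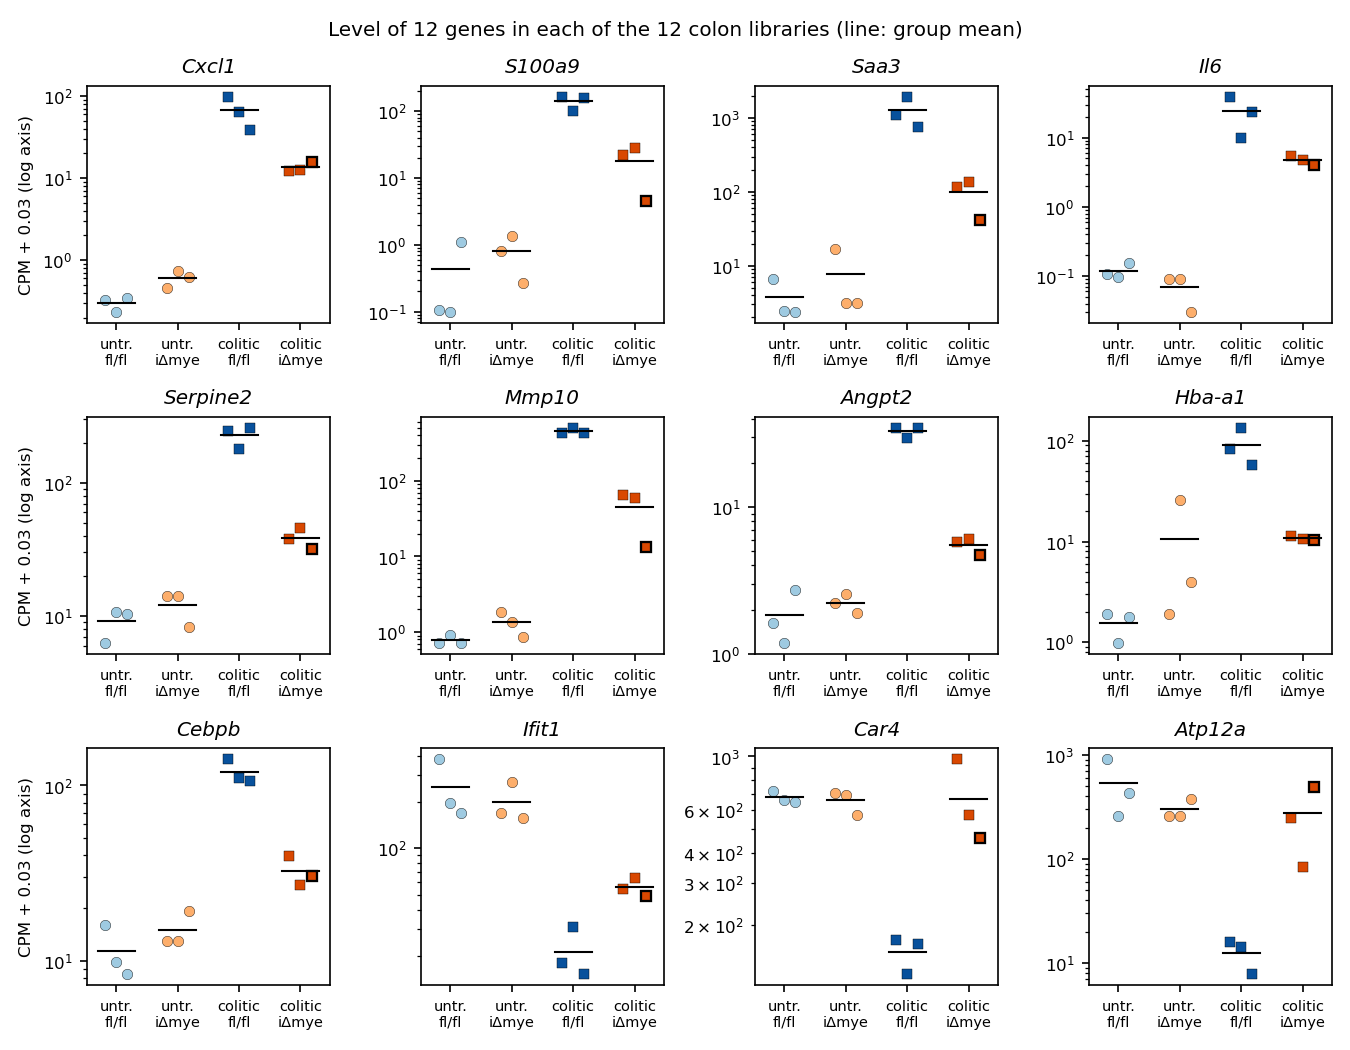
Level of 12 genes in each of the 12 libraries (CPM plus 0.03 on a log axis). Circles are untreated and squares are colitic mice, blue is Tmem173fl/fl and orange is Tmem173iΔmye, lines are group means, and the heavy outline marks replicate 5. The first 9 genes are lower in every colitic Tmem173iΔmye library than in every colitic Tmem173fl/fl library, with Serpine2 at 31.7 to 46.0 against 180 to 260 CPM, and Ifit1, Car4 and Atp12a are higher.

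Among 18 tested inflammatory cytokines and mediators 6 fell and 2 rose, with a median of -1.25 (-1.13 with a gene at the count floor set to its bound). Il6, which signals through gp130 and STAT3, was at 38.9, 9.80 and 23.4 CPM against 5.42, 4.67 and 4.01 CPM (log2 fold change -2.36, SE 0.46, BH-adjusted edgeR p 0.0346). Il11, a stromal cytokine of the same receptor family, was at 94.9, 26.7 and 157 CPM against 12.4, 10.8 and 5.89 CPM (log2 fold change -3.27, BH-adjusted edgeR p 0.03). Osm, another gp130 ligand that comes from myeloid cells, was at 18.9, 11.3 and 15.2 CPM against 4.99, 4.17 and 1.58 CPM (log2 fold change -2.09, BH-adjusted edgeR p 0.0406). In all of these gp130 ligands the groups did not overlap, and replicate 2 was the lowest Tmem173fl/fl library.

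Csf3, the growth factor of neutrophils, was at 61.3, 71.7 and 28.9 CPM against 5.56, 10.5 and 1.27 CPM (log2 fold change -3.24, BH-adjusted edgeR p 0.0388), and had no counts in untreated mice. Ptgs2, cyclooxygenase 2, which makes the precursor of prostaglandins, was at 545, 129 and 422 CPM against 50.1, 47.4 and 20.03 CPM (log2 fold change -3.23, BH-adjusted edgeR p 0.0264). Tnfsf11, RANK ligand, fell by 2.47 on the log2 scale (BH-adjusted edgeR p 0.0329). The 2 that rose were Nos2, inducible nitric oxide synthase, at 91.7, 110 and 50.5 CPM against 349, 227 and 186 CPM (log2 fold change 1.59, BH-adjusted edgeR p 0.0457), and Il18, an epithelial cytokine, at 28.9, 17.6 and 25.7 CPM against 52.4, 72.7 and 165 CPM (log2 fold change 2.0, BH-adjusted edgeR p 0.0423). The macrophage cytokines Il1b and Tnf did not pass the test, with log2 fold changes of -0.83 for Il1b (BH-adjusted edgeR p 0.403) and 1.18 for Tnf (BH-adjusted edgeR p 0.0969). Cytokines called lower numbered 0, 3 and 0 when Tmem173fl/fl replicates 1, 2 and 3 were left out in turn, and 7, 0 and 4 when Tmem173iΔmye replicates 1, 2 and 5 were. Those called higher numbered 0, 0 and 0 when Tmem173fl/fl replicates 1, 2 and 3 were left out in turn, and 1, 0 and 2 when Tmem173iΔmye replicates 1, 2 and 5 were.

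The Il6 promoter is shown because it holds 2 kinds of letters, and the promoter of Saa3, an acute-phase gene described below, because it holds the second kind. In Il6 (chr5:30012864-30013163, plus strand) capitals mark GGGANNTTC, 44 bases before the start site, and TTGCNNAA, letters close to the C/EBP site, 128 bases before it. In Saa3 (chr7:46715627-46715926, minus strand) capitals mark TTGCNNAA, 99 bases before the start site. The Saa3 promoter also holds AAAGAGAAA, 124 bases before the start site and left in lower case. It is a match to AAANNGAAA, letters close to the interferon-stimulated response element. Both strands were searched.
Il6: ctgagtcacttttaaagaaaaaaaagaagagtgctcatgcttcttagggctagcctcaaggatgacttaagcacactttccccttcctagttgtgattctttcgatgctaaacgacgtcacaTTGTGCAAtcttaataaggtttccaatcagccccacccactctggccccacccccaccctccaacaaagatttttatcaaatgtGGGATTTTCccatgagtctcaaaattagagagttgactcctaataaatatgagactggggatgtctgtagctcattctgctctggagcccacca
Saa3: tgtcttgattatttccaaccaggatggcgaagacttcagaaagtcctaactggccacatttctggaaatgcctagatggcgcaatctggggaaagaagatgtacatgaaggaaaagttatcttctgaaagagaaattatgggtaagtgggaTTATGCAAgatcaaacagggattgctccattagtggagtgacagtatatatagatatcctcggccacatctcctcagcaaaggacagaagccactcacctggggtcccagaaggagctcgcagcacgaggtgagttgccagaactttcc
TTGCNNAA stood in 14.8% of the promoters of genes that fell (50 of 338), 6.67% of those that rose (9 of 135) and 9.01% of all tested genes with a promoter in the table. Among the regulators that fell were Cebpb and Cebpd, genes of C/EBP factors. Whether their levels bear on the genes with these letters was not tested. Cebpb was at 142, 110 and 106 CPM against 39.5, 27.2 and 30.7 CPM (log2 fold change -1.88, SE 0.21, BH-adjusted edgeR p 0.00990), and Cebpd was at 265, 283 and 248 CPM against 101, 64.1 and 83.2 CPM (log2 fold change -1.68, SE 0.22, BH-adjusted edgeR p 0.0137). Of the 25 tested C/EBP, NF-κB, STAT3 and AP-1 regulators 3 fell and 1 rose, with a median of -0.34. The third that fell was Fosl1, an AP-1 subunit (log2 fold change -1.64, BH-adjusted edgeR p 0.0371), and Atf3, a stress-induced repressor, rose from 19.2, 16.3 and 11.2 CPM to 48.5, 28.0 and 68.8 CPM (log2 fold change 1.63, BH-adjusted edgeR p 0.0456). Regulators called lower numbered 0, 2 and 2 when Tmem173fl/fl replicates 1, 2 and 3 were left out in turn, and 6, 0 and 2 when Tmem173iΔmye replicates 1, 2 and 5 were. The rise of Atf3, the 1 regulator called higher, was lost whenever any of the 6 libraries was left out.

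Some monocyte and macrophage genes fell. Of 25 tested members 3 fell and 0 rose, with a median of -0.75, and in 14 the 2 groups did not overlap, with the colitic Tmem173iΔmye libraries lower. Of all genes tested 1.99% were called lower, and 14.8% did not overlap and were lower. Only 1 was called lower with DESeq2 size factors in edgeR or with upper quartile scaling, and 6 with no filter or in the fit of all 12 libraries. Cd163, a scavenger receptor of tissue macrophages, was at 93.2, 128 and 105 CPM against 37.6, 34.5 and 10.1 CPM (log2 fold change -2.0, SE 0.43, BH-adjusted edgeR p 0.0455). Mrc1, the mannose receptor, was at 212, 234 and 195 CPM against 72.6, 74.5 and 46.2 CPM (log2 fold change -1.74, SE 0.22, BH-adjusted edgeR p 0.0137). Itgam, which encodes CD11b, was at 35.3, 40.1 and 38.2 CPM against 22.7, 18.7 and 14.5 CPM (log2 fold change -1.03, BH-adjusted edgeR p 0.0438). Apoe, abundant in macrophages, was at 852, 1224 and 885 CPM against 609, 454 and 396 CPM and did not pass the test (BH-adjusted edgeR p 0.0720). The chemokine that recruits monocytes, Ccl2, was at 57.1, 38.6 and 20.5 CPM against 10.3, 9.27 and 8.5 CPM (log2 fold change -2.06, SE 0.35, BH-adjusted edgeR p 0.0266). Ccl9 also fell, by 1.06 on the log2 scale (BH-adjusted edgeR p 0.0427), and the other 15 of 17 CC chemokines did not pass the test (list median -0.32). Monocyte and macrophage genes called lower numbered 0, 1 and 1 when Tmem173fl/fl replicates 1, 2 and 3 were left out in turn, and 7, 0 and 3 when Tmem173iΔmye replicates 1, 2 and 5 were. CC chemokines called lower numbered 0, 0 and 1 when Tmem173fl/fl replicates 1, 2 and 3 were left out in turn. They numbered 1, 0 and 0 when Tmem173iΔmye replicates 1, 2 and 5 were.

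Few lymphocyte and dendritic cell genes were called. In edgeR with the filter at 0.1 FPKM and TMM scaling, 0 of 20 T and NK cell genes, 0 of 12 T helper subset genes, 0 of 18 dendritic cell genes and 0 of 9 genes of the IL-12 family passed the test, with medians of -0.03, -0.05, -0.04 and -0.18. DESeq2 called 1 dendritic cell gene lower and 1 higher, and 0 of the other 3 lists. The fit of all 12 libraries called 1 dendritic cell gene higher, and 1 was called lower by limma-voom and by edgeR with no filter, with library totals alone or with robust estimation. Without replicate 1 of the Tmem173iΔmye group edgeR called 2 dendritic cell genes and 1 T helper gene lower, and without replicate 5 it called 2 dendritic cell genes higher. Of 16 B and plasma cell genes 1 fell, Sdc1, syndecan 1 of plasma cells and epithelium, from 451, 417 and 497 CPM to 197, 214 and 148 CPM (log2 fold change -1.30, SE 0.21, BH-adjusted edgeR p 0.0215), which was chosen after its values were seen. The count of that list called lower was also 1 without replicate 5 and was 0 without replicate 2 of the Tmem173iΔmye group or without any of the 3 Tmem173fl/fl libraries. Without replicate 1 of the Tmem173iΔmye group 2 of its members were called lower and 1 higher. DESeq2, limma-voom, the fit of all 12 libraries, and edgeR with no filter or robust estimation also called 1 higher. Summed levels overlapped between the genotypes, from 88.3 to 224 CPM against 53.9 to 231 CPM for T and NK cell genes, where replicate 5 was lowest. Of 16 lymphoid and CXCR3 chemokines, Cxcl14 fell from 57.5, 60.6 and 109 CPM to 15.1, 9.58 and 11.5 CPM (log2 fold change -2.65, SE 0.31, BH-adjusted edgeR p 0.00990), and Ccl28, an epithelial chemokine that attracts plasma cells, rose from 38.0, 31.5 and 38.8 CPM to 75.5, 155 and 278 CPM (log2 fold change 2.22, BH-adjusted edgeR p 0.0311). Members of that list called lower numbered 1, 1 and 1 and those called higher 0, 0 and 0 when Tmem173fl/fl replicates 1, 2 and 3 were left out in turn. The numbers were 3, 0 and 1 lower and 2, 0 and 1 higher when Tmem173iΔmye replicates 1, 2 and 5 were.

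**Figure D3:**
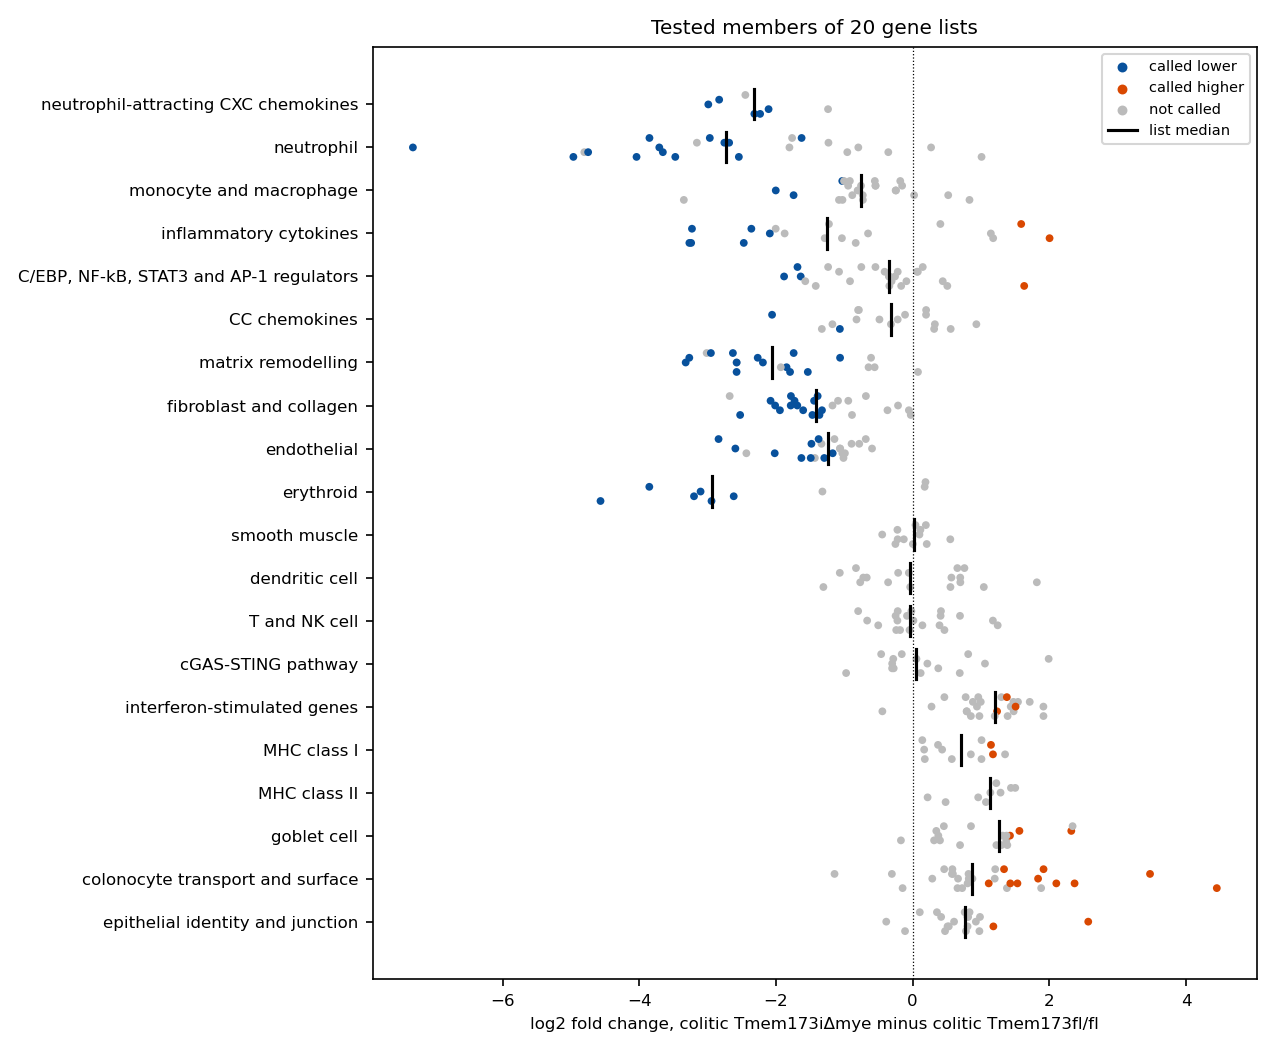
Log2 fold change of every tested member of 20 gene lists (points) between the colitic genotypes, with the list median as a black bar. Blue points were called lower, orange points higher and grey points were not called. Medians run from -2.94 for erythroid genes to 1.26 for goblet cell genes, and smooth muscle, dendritic cell, T and NK cell and cGAS-STING genes have medians between -0.04 and 0.06.

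In edgeR with the filter at 0.1 FPKM and TMM scaling 0 genes of the cGAS-STING pathway were called. DESeq2 called 2 higher, edgeR called 2 higher without replicate 2 of the Tmem173fl/fl group, and limma-voom, the unfiltered fit, the fit of all 12 libraries and the fit with a replicate block called 1 higher each. Without replicate 1 of the Tmem173iΔmye group 1 was called lower. The log2 fold changes of its 15 tested genes ran from -0.97 to 1.99 around a median of 0.06. Mb21d1, which encodes cGAS, was at 4.12, 4.54 and 2.72 CPM against 4.92, 4.92 and 8.68 CPM (BH-adjusted edgeR p 0.317). The extremes were Ifnar2, a chain of the type I interferon receptor, at 41.6, 43.8 and 30.6 CPM against 26.8, 18.8 and 13.8 CPM (BH-adjusted edgeR p 0.0987), and Zbp1, a sensor of Z-form nucleic acid, at 29.5, 78.3 and 19.5 CPM against 174, 208 and 130 CPM (BH-adjusted edgeR p 0.0614). In both the groups did not overlap although the test was not passed.

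Some interferon-stimulated genes rose in colitic Tmem173iΔmye mice. Of 25 tested, 3 rose and 0 fell, 24 had a log2 fold change above 0, the median was 1.2, and 13 did not overlap and were higher. Ifit1, an antiviral protein that binds foreign RNA, was at 17.9, 30.7 and 15.2 CPM against 54.2, 64.2 and 49.0 CPM (log2 fold change 1.38, BH-adjusted edgeR p 0.0381), and at 250 and 199 CPM on average in untreated Tmem173fl/fl and Tmem173iΔmye mice. Oas1a, an oligoadenylate synthetase, was at 21.7, 36.7 and 23.7 CPM against 68.6, 87.0 and 79.8 CPM (log2 fold change 1.51, SE 0.23, BH-adjusted edgeR p 0.0191), with untreated means of 190 and 173 CPM. Ifih1, the RNA sensor MDA5, rose by 1.24 on the log2 scale (BH-adjusted edgeR p 0.0294), from 56.1, 75.2 and 64.1 CPM to 163, 188 and 113 CPM. Untreated colon thus had the highest levels of these genes, and colitic Tmem173iΔmye mice lay between untreated and colitic Tmem173fl/fl mice. Oasl2 was at 51.5, 148 and 46.1 CPM against 224, 293 and 204 CPM and did not pass the test (BH-adjusted edgeR p 0.0933). Interferon-stimulated genes called higher numbered 0, 9 and 0 when Tmem173fl/fl replicates 1, 2 and 3 were left out in turn, and 4, 0 and 2 when Tmem173iΔmye replicates 1, 2 and 5 were. DESeq2 called 12.

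The promoters of Ifit1 (chr19:34640639-34640938, plus strand) and Oas1a (chr5:120907476-120907775, minus strand) are shown because each holds 2 matches to AAANNGAAA, letters close to the interferon-stimulated response element, marked in capitals. They begin 104 and 85 bases before the start site in Ifit1, where they read on the opposite strand, and 19 and 13 bases before it in Oas1a, where they overlap.
Ifit1: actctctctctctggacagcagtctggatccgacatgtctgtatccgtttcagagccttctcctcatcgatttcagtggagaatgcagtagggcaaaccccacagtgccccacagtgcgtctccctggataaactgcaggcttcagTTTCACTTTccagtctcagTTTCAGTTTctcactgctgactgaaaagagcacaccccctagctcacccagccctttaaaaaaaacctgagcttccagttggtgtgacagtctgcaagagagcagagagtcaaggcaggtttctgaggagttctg
Oas1a: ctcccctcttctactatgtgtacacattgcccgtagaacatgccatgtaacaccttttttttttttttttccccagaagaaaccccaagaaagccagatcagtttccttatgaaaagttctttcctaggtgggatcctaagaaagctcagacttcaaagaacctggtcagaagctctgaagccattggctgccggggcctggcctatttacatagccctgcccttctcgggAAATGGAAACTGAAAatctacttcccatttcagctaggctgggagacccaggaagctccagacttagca
Such a match stood in 14 of the 18 interferon-stimulated genes with a promoter in the table (77.8%), against 8.59% of all tested genes, 11.1% of the genes that rose (15 of 135) and 7.69% of those that fell (26 of 338). It also stood in 4 of 13 matrix remodelling genes with a promoter there (30.8%), a list described below of which most members fell. Among the inflammatory cytokines it stood in 0 of 14.

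Few genes of antigen presentation were called. B2m, the light chain of MHC class I, was at 804, 1109 and 661 CPM against 1688, 2230 and 1942 CPM (log2 fold change 1.18, BH-adjusted edgeR p 0.0495), and Psmb10, an immunoproteasome subunit, rose by 1.15 on the log2 scale (BH-adjusted edgeR p 0.0364). These were the 2 called among 12 MHC class I genes, with a list median of 0.71 and all 12 above 0. Of all genes tested 0.822% were called higher. Class I genes called higher numbered 0, 1 and 0 when Tmem173fl/fl replicates 1, 2 and 3 were left out in turn. They numbered 2, 0 and 0 when Tmem173iΔmye replicates 1, 2 and 5 were. All 9 MHC class II genes were above 0 with a median of 1.14, and 0 were called in edgeR with the filter at 0.1 FPKM and TMM scaling or when any 1 library was left out. Called higher were 5 by DESeq2, 5 by edgeR with no filter, 4 in the fit of all 12 libraries and 3 with a replicate block. Cd74, the invariant chain, was at 670, 1039 and 397 CPM against 2163, 1906 and 1101 CPM (BH-adjusted edgeR p 0.115), with 2020 and 1460 CPM on average in untreated mice of the 2 genotypes.

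A few acute-phase genes fell. Of 22 acute-phase and epithelial defence genes 3 fell and 0 rose, and the median was -0.47. Saa3, serum amyloid A3, was at 1109, 1939 and 752 CPM against 118, 137 and 41.6 CPM (log2 fold change -3.70, SE 0.52, BH-adjusted edgeR p 0.0167), with 3.76 and 7.70 CPM in untreated mice. Serpina3m fell by 3.0 (BH-adjusted edgeR p 0.0202) and Serpina3n by 2.04 (BH-adjusted edgeR p 0.0343) on the log2 scale. These are protease inhibitors of the acute phase and are close paralogues, so reads may have been shared between them. Acute-phase genes called lower numbered 0, 2 and 2 when Tmem173fl/fl replicates 1, 2 and 3 were left out in turn, and 6, 0 and 5 when Tmem173iΔmye replicates 1, 2 and 5 were. Members of the list called higher numbered 4 by DESeq2, in the fit of all 12 libraries and with a replicate block, 3 with no filter, and 1 with upper quartile scaling, with robust estimation and without Tmem173iΔmye replicate 1 or 5.

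Most genes of matrix remodelling fell. Of 20 tested, 13 fell and 0 rose, the median was -2.06, 17 did not overlap and were lower, and 14 were called for the interaction with DSS. Serpine2, an extracellular inhibitor of serine proteases, was at 246, 180 and 260 CPM against 38.0, 46.0 and 31.7 CPM (log2 fold change -2.58, SE 0.22, BH-adjusted edgeR p 0.00571). In each group the 3 libraries lay close together and the groups were far apart. Plau, the plasminogen activator urokinase, also fell, from 147, 124 and 224 CPM to 48.9, 42.2 and 17.9 CPM (log2 fold change -2.19, BH-adjusted edgeR p 0.0276).

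Lox, lysyl oxidase, which crosslinks collagen, was at 329, 320 and 243 CPM against 40.8, 52.9 and 51.5 CPM (log2 fold change -2.63, SE 0.21, BH-adjusted edgeR p 0.00511). Adamts1, a protease of proteoglycans, was at 314, 330 and 386 CPM against 74.2, 75.1 and 66.1 CPM (log2 fold change -2.27, SE 0.18, BH-adjusted edgeR p 0.00511). Matrix metalloproteinases fell with them. Mmp10 was at 428, 504 and 428 CPM against 64.3, 59.7 and 13.1 CPM (log2 fold change -3.32, BH-adjusted edgeR p 0.0213), and Mmp3, also a stromelysin, was at 155, 196 and 168 CPM against 61.6, 47.5 and 41.5 CPM (log2 fold change -1.79, BH-adjusted edgeR p 0.00990). The collagenase Mmp13 fell by 2.95 (BH-adjusted edgeR p 0.0252), the gelatinase Mmp2 by 2.57 (BH-adjusted edgeR p 0.0181), and the inhibitor Timp1 by 1.84 (BH-adjusted edgeR p 0.0311) on the log2 scale. The proteases and their inhibitors thus fell in the same libraries. Matrix genes called lower numbered 4, 9 and 6 when Tmem173fl/fl replicates 1, 2 and 3 were left out in turn, and 15, 4 and 12 when Tmem173iΔmye replicates 1, 2 and 5 were.

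Most fibroblast and collagen genes fell, with a smaller median change. Of 24 tested, 14 fell, 0 rose, all 24 were below 0 and the median was -1.42. Col3a1 was at 4378, 3301 and 3546 CPM against 1429, 880 and 1090 CPM (log2 fold change -1.73, SE 0.27, BH-adjusted edgeR p 0.0207), with 525 and 546 CPM on average without DSS. Col1a1 fell by 1.69 (BH-adjusted edgeR p 0.0337), Col12a1 by 2.52 (BH-adjusted edgeR p 0.0137) and Dcn, the small proteoglycan decorin, by 1.78 (BH-adjusted edgeR p 0.0137) on the log2 scale. Col4a1, a chain of basement membrane collagen, was at 1823, 1704 and 1889 CPM against 652, 417 and 278 CPM (log2 fold change -2.01, SE 0.32, BH-adjusted edgeR p 0.0219). Pdgfrb, a receptor of fibroblasts and pericytes, was at 198, 216 and 159 CPM against 80.9, 43.7 and 24.8 CPM (log2 fold change -1.94, BH-adjusted edgeR p 0.0381). The colitic Tmem173iΔmye libraries stayed above the untreated means for Col3a1. Smooth muscle genes gave a contrast within the wall, with 0 of 12 called, a median of 0.02 and summed levels of 3920 to 4525 CPM against 3475 to 4629 CPM. Fibroblast genes called lower numbered 0, 8 and 3 when Tmem173fl/fl replicates 1, 2 and 3 were left out in turn, and 16, 0 and 11 when Tmem173iΔmye replicates 1, 2 and 5 were.

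Vessel genes fell in part, with 9 of 22 endothelial genes called lower, 0 higher, all 22 below 0 and a median of -1.23. Angpt2, angiopoietin 2, which loosens vessels for sprouting, was at 34.7, 29.7 and 34.6 CPM against 5.77, 6.04 and 4.67 CPM (log2 fold change -2.59, SE 0.22, BH-adjusted edgeR p 0.00511). Esm1, a marker of endothelial tip cells, was at 10.9, 7.29 and 14.3 CPM against 1.78, 1.62 and 1.15 CPM (log2 fold change -2.84, BH-adjusted edgeR p 0.0137). Selp, P-selectin, on which leukocytes roll, was at 52.5, 45.6 and 74.3 CPM against 21.2, 14.1 and 7.41 CPM (log2 fold change -2.02, BH-adjusted edgeR p 0.0316). Flt1, a receptor of vascular endothelial growth factor, fell by 1.63 on the log2 scale (BH-adjusted edgeR p 0.0175). Endothelial genes called lower numbered 1, 4 and 2 when Tmem173fl/fl replicates 1, 2 and 3 were left out in turn, and 16, 1 and 6 when Tmem173iΔmye replicates 1, 2 and 5 were.

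Red blood cell transcripts moved the same way, with 6 of 9 lower and a median of -2.94. Hba-a1 was at 82.8, 135 and 57.8 CPM against 11.4, 10.6 and 10.3 CPM (log2 fold change -3.10, SE 0.31, BH-adjusted edgeR p 0.00899), and Hbb-bs was at 79.7, 135 and 71.5 CPM against 12.8, 10.8 and 13.8 CPM (log2 fold change -2.94, SE 0.28, BH-adjusted edgeR p 0.00840). Alas2, the first enzyme of haem synthesis in erythroid cells, fell by 3.20 on the log2 scale (BH-adjusted edgeR p 0.0181), from 9.27, 14.7 and 8.17 CPM to 2.0, 0.871 and 0.668 CPM. The globin genes come in near-identical pairs whose reads may have been shared. Erythroid genes called lower numbered 3, 4 and 6 when Tmem173fl/fl replicates 1, 2 and 3 were left out in turn, and 5, 2 and 5 when Tmem173iΔmye replicates 1, 2 and 5 were. Genes that respond to tissue handling fell in part, with 2 of 12 called, Nr4a1 (log2 fold change -2.29, BH-adjusted edgeR p 0.0427) and Dusp1 (log2 fold change -1.71, BH-adjusted edgeR p 0.0202), of which 1 was called without replicate 5 and 0 without replicate 1 or 3 of the Tmem173fl/fl group or replicate 2 of the Tmem173iΔmye group. The part of blood and of handling in the stromal and myeloid differences was not tested.

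**Figure D4:**
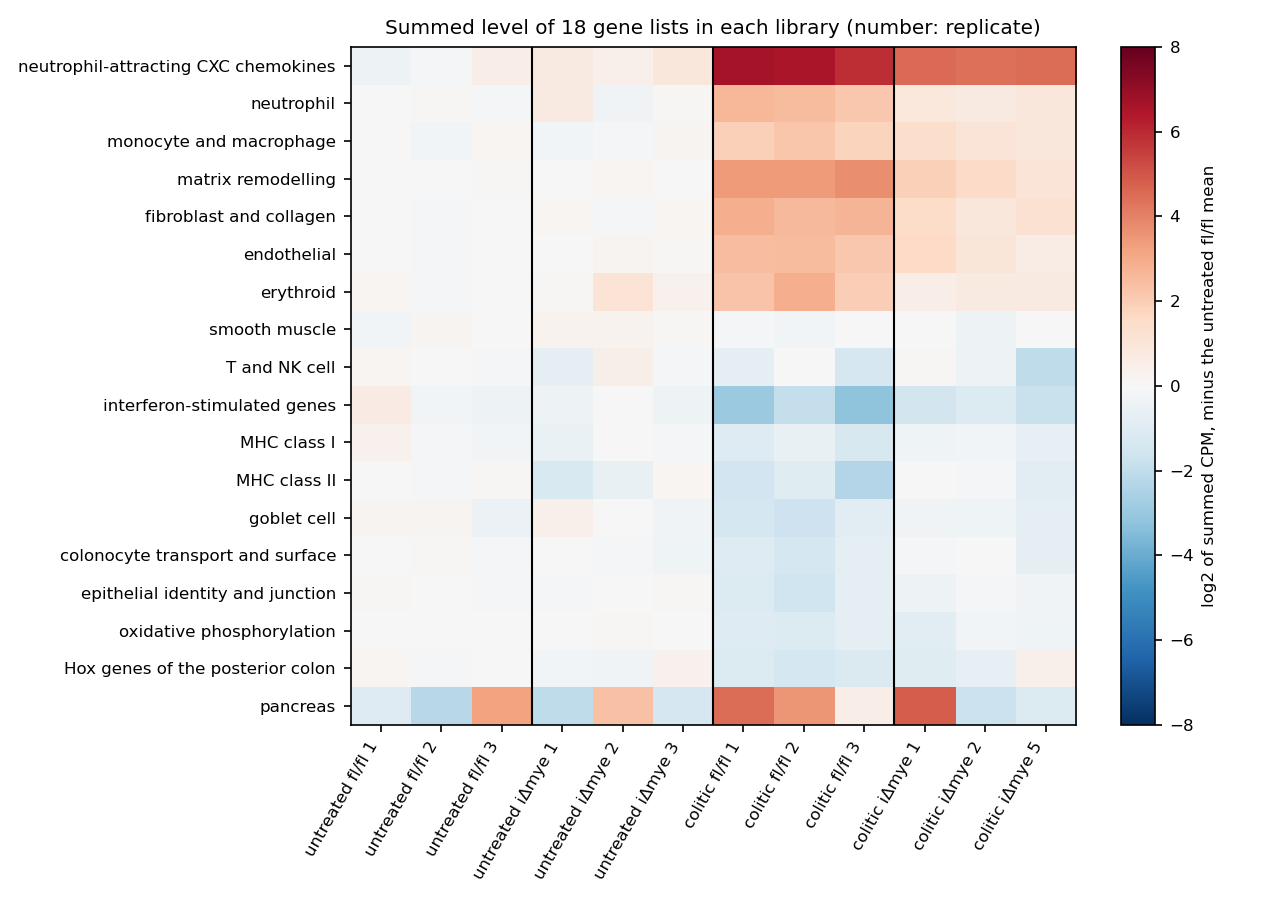
Summed CPM of 18 gene lists in each library, as log2 minus the mean of the untreated Tmem173fl/fl libraries (red higher, blue lower, colour scale from -8 to 8). Columns are libraries with their replicate number and rows are lists. Neutrophil-attracting chemokines stand at 5.90 to 6.66 in colitic Tmem173fl/fl and 4.43 to 4.53 in colitic Tmem173iΔmye libraries, and pancreas genes vary within both colitic groups.

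Genes of the differentiated epithelium rose in part. Of 29 colonocyte transport and surface genes 10 rose, 0 fell, 26 were above 0 and the median was 0.88. Car4, carbonic anhydrase 4 of the brush border, was at 174, 125 and 167 CPM against 978, 571 and 459 CPM (log2 fold change 2.10, SE 0.32, BH-adjusted edgeR p 0.0185), and at 677 and 658 CPM on average without DSS. Slc5a8, which takes up butyrate with sodium, was at 70.9, 50.04 and 82.0 CPM against 183, 305 and 284 CPM (log2 fold change 1.92, SE 0.26, BH-adjusted edgeR p 0.0159). Aqp4, a water channel, was at 134, 42.3 and 124 CPM against 528, 630 and 405 CPM (log2 fold change 2.37, SE 0.41, BH-adjusted edgeR p 0.0276). For these transport genes every colitic Tmem173fl/fl library was below every colitic Tmem173iΔmye library, and for Slc5a8 and Aqp4 both colitic groups stayed below the untreated means of 471 and 394 CPM and of 1238 and 1009 CPM.

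Atp12a, the colonic proton-potassium pump, was at 15.9, 14.1 and 7.76 CPM against 250, 83.8 and 494 CPM (log2 fold change 4.45, SE 0.63, BH-adjusted edgeR p 0.0167), and Trpm6, a magnesium channel, was at 7.10, 5.96 and 5.24 CPM against 52.7, 29.4 and 122 CPM (log2 fold change 3.47, SE 0.50, BH-adjusted edgeR p 0.0171). Scnn1a, a subunit of the epithelial sodium channel, rose by 1.53 (BH-adjusted edgeR p 0.0191) and Slc26a3, the chloride-bicarbonate exchanger, by 1.84 (BH-adjusted edgeR p 0.0332) on the log2 scale. The tight junction gene Cldn8 was at 26.7, 30.7 and 44.9 CPM against 90.9, 154 and 365 CPM (log2 fold change 2.57, BH-adjusted edgeR p 0.0317). Cldn8 and Gpa33, a surface antigen of colon epithelium (log2 fold change 1.18, BH-adjusted edgeR p 0.0307), were the 2 called of 20 epithelial identity and junction genes, whose median was 0.77, and 3 were called without replicate 5. Krt8, a keratin of all colon epithelium, was at 2164, 1534 and 2665 CPM against 3336, 3862 and 3973 CPM (log2 fold change 0.80, BH-adjusted edgeR p 0.137). In Atp12a, Trpm6 and Cldn8 replicate 5 was the highest colitic library.

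Of 18 goblet cell genes 3 rose and 0 fell, with a median of 1.26 and 17 above 0. Called higher were 7 by DESeq2 and by edgeR with no filter, 8 in the fit of all 12 libraries and 9 with a replicate block. With limma on log2(FPKM + 0.1) 0 were called. Clca1, a secreted metalloprotease of the mucus layer, was at 434, 214 and 555 CPM against 2857, 1725 and 1445 CPM (log2 fold change 2.32, SE 0.41, BH-adjusted edgeR p 0.0278), with 5831 and 6151 CPM on average without DSS. The membrane mucins Muc3 and Muc13 rose by 1.43 (BH-adjusted edgeR p 0.0371) and 1.56 (BH-adjusted edgeR p 0.0467) on the log2 scale. Of 12 fetal-like and wound-associated epithelial genes, with a median of 0.50, 1 fell and 1 rose. Ereg, the growth factor epiregulin, fell from 822, 266 and 920 CPM to 115, 93.0 and 90.9 CPM (log2 fold change -2.75, SE 0.43, BH-adjusted edgeR p 0.0207), while Ly6a rose from 330, 329 and 267 CPM to 770, 930 and 1265 CPM (log2 fold change 1.67, SE 0.25, BH-adjusted edgeR p 0.0181). Of 15 crypt stem and Wnt genes, with a median of 0.14, 2 fell, Olfm4 and Smoc2, and 0 rose. Olfm4, a glycoprotein of crypt cells and neutrophils, was at 3.14, 3.46 and 4.22 CPM against 0.356, 0.498 and 0.0607 CPM (log2 fold change -3.55, BH-adjusted edgeR p 0.0224). Without replicate 5 the counts of both lists were the same, and they were 0 without replicate 1 or 3 of the Tmem173fl/fl group or replicate 2 of the Tmem173iΔmye group. DESeq2 called 2 wound-associated genes lower and 4 higher. All 18 cell cycle genes were above 0 with a median of 0.50 and none passed the test.

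Other large rises were in epithelial genes outside the transport lists and in Hox genes. Gsdmc4, a gasdermin C of colon epithelium, was at 81.9, 51.2 and 76.1 CPM against 580, 685 and 1152 CPM (log2 fold change 3.52, SE 0.33, BH-adjusted edgeR p 0.00840), though reads may have been shared with its close paralogues. Capn13, a calpain, was at 13.7, 10.7 and 13.1 CPM against 106, 74.2 and 126 CPM (log2 fold change 3.03, SE 0.25, BH-adjusted edgeR p 0.00511), and B3gnt7, an enzyme that extends mucin glycans, rose by 3.48 on the log2 scale (BH-adjusted edgeR p 0.0190). Tgm3, a transglutaminase, was at 10.02, 0.521 and 2.93 CPM against 442, 111 and 1173 CPM (log2 fold change 7.00, SE 1.23, BH-adjusted edgeR p 0.0278). Casp14 was at 0.433, 0 and 0.136 CPM against 9.05, 1.99 and 64.2 CPM (BH-adjusted edgeR p 0.0438), and Ces2f, a carboxylesterase, at 1.14, 0.852 and 0.885 CPM against 11.8, 12.8 and 80.8 CPM (BH-adjusted edgeR p 0.0219). In Tgm3, Casp14 and Ces2f replicate 5 was the highest Tmem173iΔmye library by far. Hoxb13, a homeobox gene of the most distal gut, was at 4.93, 0.710 and 0.613 CPM against 28.6, 21.1 and 196 CPM (log2 fold change 5.28, SE 1.13, BH-adjusted edgeR p 0.0455), and Hoxa13 was at 25.0, 17.2 and 18.6 CPM against 42.6, 64.1 and 78.9 CPM (log2 fold change 1.60, SE 0.26, BH-adjusted edgeR p 0.0227). These 2 and Hoxa9 were the called members of 17 Hox genes, whose median was 0.11. Without replicate 5 only 1 Hox gene was called, and 0 were called without replicate 2 of the Tmem173iΔmye group or without any of the 3 Tmem173fl/fl libraries. The segment of colon that each library came from was not given in the sources used here, and the part of position in the epithelial differences was not tested.

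The epithelial counts also moved with single libraries. Colonocyte genes called higher numbered 0, 4 and 2 when Tmem173fl/fl replicates 1, 2 and 3 were left out in turn, and 11, 2 and 9 when Tmem173iΔmye replicates 1, 2 and 5 were. Goblet cell genes called higher numbered 0, 0 and 0 when Tmem173fl/fl replicates 1, 2 and 3 were left out in turn, and 5, 0 and 2 when Tmem173iΔmye replicates 1, 2 and 5 were. Oxidative phosphorylation genes had summed levels of 3067 to 3816 CPM against 3740 to 5815 CPM, with 0 of 20 called and a median of 0.59, while 5 were called higher without replicate 1 of the Tmem173iΔmye group and 1 by DESeq2 and in the fit of all 12 libraries. Pancreas genes had summed levels of 693 CPM in replicate 3 of the Tmem173fl/fl group and of 143 and 222 CPM in replicates 2 and 5 of the Tmem173iΔmye group, against 5399 CPM or more in the other 3 colitic libraries. With 0 of 12 pancreas genes called (1 lower without replicate 1 of the Tmem173iΔmye group), that split did not follow the genotypes.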

How the data were processed

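RNA from total colon of 12 mice was sequenced, 1 library per mouse, in 4 groups of 3. Per the labels and the study's methods, the authors made polyA libraries, filtered reads with fastp, aligned them to GRCm38 (mm10) with HISAT2 2.0.5 and counted them per gene with featureCounts 1.5.0-p3, and whether strand was used is not given in the sources used here. The deposited table holds raw counts for each library and FPKM values (fragments scaled by gene length and depth) made from them by the authors. Its fold changes and p-values of the authors' own comparisons, and its group means, were not used.

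Of 54532 genes, 24102 that reached 0.1 FPKM in 3 or more of the 12 libraries were tested. Counts of the 6 colitic libraries were fitted with edgeR 4.0.16 (R 4.3.3), TMM scaling and the quasi-likelihood test, with Benjamini-Hochberg adjustment over all genes tested. The SE is the absolute log2 fold change divided by the square root of F. The untreated genotypes were fitted in the same way, and the interaction over all 12 libraries. Alternatives used DESeq2 1.42.0, limma 3.58.1, other scalings, filters and thresholds, and left out each library in turn. The model code was tested on simulated data. Promoters came from RefSeq (GRCm38.p6), which held 338 of the 480 genes that fell and 135 of the 198 that rose. The floor was 3 counts per library.

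Gene lists and members were chosen with earlier results of these data known. Named genes were Tmem173 and Lyz2, the largest changes and smallest p-values among called genes, the 3 most changed called members and the most abundant member of each list, STING pathway genes and genes the study names, of which a selection by role is printed. Further genes, such as Ly6g and the gasdermins, were chosen after their values were seen. Nothing states that libraries of a group came from separate experiments, so p-values measure the spread between these mice. Some items are not reported here.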

Additional observations from a re-analysis of the deposited data

Results flagged for a closer look

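These genes had a genotype difference in colitic mice that differed from that in untreated mice, by the test of the interaction itself in edgeR across all genes. They number 79 of the 120 genes printed with a test, 47 with a lower and 32 with a higher difference in colitic mice, at adjusted p-values from 0.000756 to 0.0462. The value for each gene is the log2 fold change between genotypes in colitic mice minus that in untreated mice. Among genes of blood and vessels they were Hbb-bt (-6.62), Hba-a1 (-5.87), Hbb-bs (-5.24), Alas2 (-5.02), Esm1 (-3.58), Angpt2 (-2.85) and Flt1 (-1.60). The values of Hba-a1, Hbb-bt, Hbb-bs and Alas2 include untreated log2 fold changes of 2.78, 2.77, 2.31 and 1.83, none of which passed the test. Hbb-bt, Hbb-bs and Alas2 were highest in replicate 2 of the untreated Tmem173iΔmye group, at 3.77, 27.7 and 2.04 CPM, against 0.303 and 0.842, 2.49 and 8.60, and 0.303 and 0.361 CPM in replicates 1 and 3. For chemokines, cytokines and mediators the values were Cxcl1 (-3.38), Pf4 (-3.50), Cxcl14 (-2.61), Ccl2 (-2.27), Ptgs2 (-2.74), Ereg (-3.06), Inhba (-2.84), Inhbb (-2.44), Fst (-2.58) and Bmp4 (-1.74). Among genes of myeloid cells, the acute phase and regulators they were Lcn2 (-4.09), Saa3 (-4.73), Cd163 (-2.69), Mrc1 (-2.08), Apoe (-1.49), Itgam (-1.31), Cebpb (-2.27), Cebpd (-1.53) and Dusp1 (-1.83). For proteases and their inhibitors the values were Mmp10 (-4.12), Mmp13 (-3.08), Mmp2 (-2.52), Mmp3 (-2.51), Plau (-1.89), Adamts1 (-2.45), Serpine2 (-2.98) and Timp1 (-3.02). Among genes of the matrix and its cells they were Lox (-3.06), Col18a1 (-2.97), Col12a1 (-2.47), Col4a1 (-2.07), Col3a1 (-1.78), Col1a1 (-1.72), Lamb1 (-2.06), Pdgfrb (-2.01), Dcn (-1.91) and Igfbp4 (-2.36). Sdc1, of plasma cells and epithelium, was at -1.38. For metal and thyroid hormone handling the values were Mt3 (-4.22) and Dio2 (-5.12). The higher differences follow. Among genes of interferon response and antigen presentation they were Psmb10 (1.23), Ifih1 (1.39), B2m (1.40) and Oas1a (1.66). For ion and water transport the values were Scnn1a (1.76), Slc26a3 (1.86), Car4 (2.15), Slc5a8 (2.18), Aqp4 (2.67), Trpm6 (3.73) and Atp12a (5.29). Among genes of mucus, junctions and the cell surface they were Gpa33 (1.38), Muc13 (1.78), Muc3 (1.82), Ly6a (2.06), Cldn8 (2.88), St3gal4 (1.67), B3gnt5 (2.87) and B3gnt7 (3.80). For epithelial cytokines and enzymes the values were Il18 (2.13), Ccl28 (2.64), Sult1b1 (2.14), Ces2f (6.17), Pla2g2f (2.90) and Capn13 (3.48). Among genes of gasdermins, cornified epithelium and Hox genes they were Gsdmc2 (2.32), Gsdmcl2 (4.0), Gsdmc4 (4.11), Tgm3 (7.86), Casp14 (7.94), Hoxa13 (1.62) and Hoxb13 (5.69). Most of these genes were printed because they were called between the colitic genotypes, so the counts are no independent support. With 3 libraries in each group, no test for a single outlying value of a gene was made.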

How the results depend on the processing

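The number of calls depended on the processing, while 0 of the 120 genes printed with a test reversed under any alternative. Most of these genes were printed because they were called in the same libraries, so the kept sign is no independent support for their direction. Called genes numbered 1257 with no filter (474 higher and 783 lower), 1619 by DESeq2 (664 and 955), 1492 in 1 fit of all 12 libraries (612 and 880), 140 by limma on log2(FPKM + 0.1) (37 and 103), and 2505 at an unadjusted p of at most 0.05 with the same fold (1060 and 1445). Leaving out 1 library gave 27 to 1593 called genes, 5 to 485 of them higher and 22 to 1108 lower. For the interaction it gave 267 to 1728 calls against 614, and for untreated mice 0 to 6 against 0, where DESeq2 called 8. The cause was not tested. Deviations of same-numbered libraries from their group means correlated at 0.184 for number 1 and -0.172 for number 2. Only these numbers occur in both colitic groups, so the values cannot tell whether the replicate numbers paired the mice. With a replicate block, whose genotype difference rests on replicates 1 and 2 of each group alone, 849 genes were called, 373 higher and 476 lower. Of the 120 genes, 84 no longer had an adjusted p under 0.05 by limma on FPKM values, whatever their fold change. Over the 6 edgeR fits that each left out 1 library, an adjusted p under 0.05 was lost in 336 cases. It was gained in 4, and the status stayed the same in 380. The 3 libraries a group, of 13823237 to 18718915 counts each, limit the precision for low genes.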

Other observations

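Gene families were counted by their symbols after their values had been seen, so the counts are descriptions and no test was made of them. Of all genes tested, 1.99% fell and 0.822% rose. Some members, such as Col3a1 and Clca1, also belong to the lists above, so these counts partly repeat those of the lists. Of 11 laminins tested 6 fell and 0 rose. Lamb1, a chain of basement membrane, was at 513, 485 and 514 CPM in the colitic Tmem173fl/fl group and at 204, 136 and 60.6 CPM in the colitic Tmem173iΔmye group (log2 fold change -1.92, BH-adjusted edgeR p 0.0395). Of 38 collagens 15 fell and 0 rose. Col18a1, the source of endostatin, was at 1041, 988 and 1015 CPM against 242, 149 and 44.1 CPM (log2 fold change -2.81, BH-adjusted edgeR p 0.0318). Of 5 activins and their antagonists 4 fell. Inhba fell by 2.89, Inhbb by 2.40 and Fst, follistatin, by 2.34 on the log2 scale (BH-adjusted edgeR p 0.0219, 0.00899 and 0.0250). Of 6 IGF-binding proteins 4 fell, with Igfbp4 at -2.07 (BH-adjusted edgeR p 0.0310), and of 6 BMP ligands 2 fell, with Bmp4 at -1.82 (BH-adjusted edgeR p 0.0284). Of 4 metallothioneins 3 fell, with Mt2 at -2.69 (BH-adjusted edgeR p 0.0181) and Mt3 at -3.82 (BH-adjusted edgeR p 0.0167). Dio2, which activates thyroid hormone, fell by 4.08 (BH-adjusted edgeR p 0.0241).

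Other families had members that rose. All 5 tested gasdermin C genes rose and 0 of 3 other gasdermins were called. Gsdmcl2 was at 15.6, 7.62 and 13.3 CPM against 84.9, 84.4 and 241 CPM, and Gsdmc2 rose by 2.03 on the log2 scale (BH-adjusted edgeR p 0.0148), but these genes are close paralogues, so reads may have been shared between them. Of 34 sialyl-, fucosyl-, N-acetylglucosaminyl- and sulfotransferases 8 rose and 1 fell. St3gal4 was at 74.5, 54.8 and 60.9 CPM against 201, 265 and 225 CPM (log2 fold change 1.85, BH-adjusted edgeR p 0.00899), and B3gnt5 was at 16.5, 16.2 and 17.2 CPM against 62.4, 111 and 196 CPM (log2 fold change 2.88, BH-adjusted edgeR p 0.0137). Pla2g2f, a secreted phospholipase A2, rose by 3.07 on the log2 scale (BH-adjusted edgeR p 0.0371), and of 8 CLCA genes 3 rose, with Clca3b at 2.29 (BH-adjusted edgeR p 0.0472). Sult1b1, a sulfotransferase, rose by 2.01 (BH-adjusted edgeR p 0.0304). Gasdermin C genes called higher numbered 1, 3 and 2 without replicates 1, 2 and 3 of the Tmem173fl/fl group and 5, 2 and 3 without replicates 1, 2 and 5 of the Tmem173iΔmye group. Without replicate 1 of the Tmem173fl/fl group or replicate 2 of the Tmem173iΔmye group, 0 laminins, 0 collagens, 0 BMP ligands, 0 metallothioneins and 0 CLCA genes were called, 1 activin gene was called lower and 1 transferase higher. IGF-binding proteins called lower were 1 and 0 in these comparisons. Laminins, BMP ligands and CLCA genes called were 0 without any Tmem173fl/fl library. Without replicate 5, 4 laminins, 11 collagens, 3 activin genes, 4 IGF-binding proteins, 3 BMP ligands, 2 metallothioneins and 1 transferase were called lower, and 9 transferases and 1 CLCA gene higher.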
